A study of Mus musculus with 16 samples.

Results

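The genes described here are 36 names of surface epithelium genes: the keratins, water channels, desmosome and envelope proteins, secreted and surface proteins, and transcription factors that mark the corneal epithelium, the conjunctival epithelium and keratinocytes in general. They were chosen by name, with earlier results of these data known. In a table of 51912 mouse genes 35 of the 36 matched an identifier (Krt3 matched none). A filter on low counts (a mean of at least 1 CPM, the count scaled for library size) was passed by 34. Ly6d, a keratinocyte surface protein, did not pass and held 0 to 30 counts per library. The other 34 comprise 2 corneal genes, 2 conjunctival keratins, 4 basal keratinocyte genes, 3 stress keratins, 2 water channels, 11 desmosome and envelope genes, 5 surface and secreted genes and 5 transcription factors.

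All libraries came from RPE (retinal pigment epithelium, which lies behind the photoreceptors) of male C57BL/6 mice aged 40 weeks. The genotypes were wild type and knockout of Sucnr1, whose product is a receptor for succinate, and each genotype was left untreated or exposed to hydroquinone (HQ), an oxidant; the dose and route are not given in the sources used here. There were 16 libraries, each labelled with 1 eye of 1 of 13 mice, in 4 groups of 4: wild type untreated (2 mice), wild type with HQ (4 mice), knockout untreated (3 mice) and knockout with HQ (4 mice). Per the labels' protocol, cornea, iris and lens were cut away, the retina was peeled off, and clumps of RPE were lifted from the choroid with forceps before RNA was extracted.

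The cornea and the conjunctiva are the stratified epithelia of the eye's front surface. Both are built from basal cells that express keratin 5, keratin 14 and the transcription factor p63. Corneal cells express keratin 12 and the crystallin-like enzyme ALDH3A1, and conjunctival cells express keratin 4 and keratin 13. Keratin 15 marks basal cells, in the eye most of all those of the limbus, where cornea and conjunctiva meet. The RPE is a single-layered epithelium of neural origin that is known for simple keratins rather than for these.

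Total counts ranged from 21113549 to 35332444 per library. The RPE marker list summed to between 20990 and 33060 CPM (with library sizes scaled by the TMM method) and rod photoreceptor markers to between 261.6 and 24700 CPM. Sucnr1, the gene knocked out, held 0 to 17 counts in the wild-type libraries and 0 to 3 in the knockout libraries, which is too few to check the genotype labels. In the sample descriptions 7 library numbers end in a letter and 9 do not, and what the letter stands for is not given in the sources used here.

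The surface epithelium genes were present in every library and varied widely between libraries of the same group. Together they took from 0.616% (knockout HQ replicate 4) to 3.98% (wild type HQ replicate 2) of a library's counts, and 33 of the 35 were detected in all 16 libraries. The exceptions were Krt16 and Ly6d, each at 0 in 1 library. In bulk RNA, fewer cells of a type and less RNA per cell cannot be told apart.

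Levels of different genes were set side by side only per kilobase of exon (CPM divided by the length of the gene's joined exons, written RPKM). On this scale the highest median over the 16 libraries was that of Krt15, the limbal and basal keratin, at 1338 RPKM, followed by the basal keratin gene Krt5 at 921.8, Krt12 at 875.9 and Aldh3a1 at 854.2 RPKM. The conjunctival keratin genes followed with medians of 397.0 RPKM for Krt13 and 156.4 RPKM for Krt4. Perp, a desmosome component and target of p63, stood at 194.5 RPKM, Krt6a at 158.9, Aqp3 at 124.0, Aqp5 at 103.9 and Krt14 at 101.6 RPKM. Krt5, Krt12 and Aldh3a1 differed by less than their spread between libraries, whose ranges were 448.2 to 3041, 130.4 to 5572 and 267.0 to 3509 RPKM. The transcription factors lay lower, from a median of 2.20 RPKM for Ovol1 to 81.7 RPKM for Elf3.

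Krt12 (ENSMUSG00000020912, chr11:99415666-99422259, minus strand, GRCm38) encodes the type I keratin that defines differentiated corneal epithelium. It stood at 3923, 536, 998 and 2233 CPM in replicates 1 to 4 of the untreated wild type and at 7606, 10320, 437 and 1804 CPM in the wild type with HQ. In the knockout it stood at 1902, 2581, 1440 and 1060 CPM untreated and at 3131, 1430, 241.5 and 339 CPM with HQ. The 4 groups overlapped, and both HQ groups held low as well as high libraries. By count, without regard to gene length, Krt12 ranked 1st of all genes in wild type HQ replicate 2 and 600th in knockout HQ replicate 3, a 42.7-fold difference in its CPM. Its SD within groups was 1.53 on the log2(CPM + 1) scale, larger than that of 99.0% of the 15380 genes tested.

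Aldh3a1 (ENSMUSG00000019102, chr11:61207537-61218421, plus strand) encodes an aldehyde dehydrogenase that accumulates in corneal epithelium and in stromal keratocytes. Its levels were 2999, 574.5, 1169 and 2241 CPM in the untreated wild type and 4918, 6814, 663 and 1517 CPM with HQ. Knockout libraries held 1887, 2064, 1401 and 1010 CPM untreated and 1801, 1888, 518.5 and 547 CPM with HQ. The libraries that were highest and lowest for Krt12 were also highest and lowest for Aldh3a1, with a 13.1-fold range and overlapping groups.

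Krt4 (ENSMUSG00000059668, chr15:101918535-101924735, minus strand) encodes the type II keratin of conjunctival and other mucosal epithelia. Untreated wild-type libraries held 551, 545, 479 and 656 CPM and those with HQ 384, 352, 243 and 313 CPM. The knockout held 275, 486, 230.0 and 309.6 CPM untreated and 158.5, 1007, 316 and 313 CPM with HQ. All 4 wild-type libraries with HQ lay below all 4 untreated ones, whereas the knockout HQ group held both the lowest library of the series (replicate 1) and the highest (replicate 2). Krt13 (ENSMUSG00000044041, chr11:100117327-100121566, minus strand), whose protein pairs with keratin 4, stood at 1510, 746.5, 883 and 1228 CPM in the untreated wild type and 1229, 1220, 277 and 808 CPM with HQ. In the knockout its levels were 665, 699, 571 and 558 CPM untreated and 541, 1362, 479.7 and 387 CPM with HQ. For Krt13 the untreated knockout libraries all lay below the untreated wild-type libraries, and the other pairs of groups overlapped. The separations of Krt4 and of Krt13 both involve the 4 untreated wild-type libraries, which came from 2 mice.

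**Figure D1:**
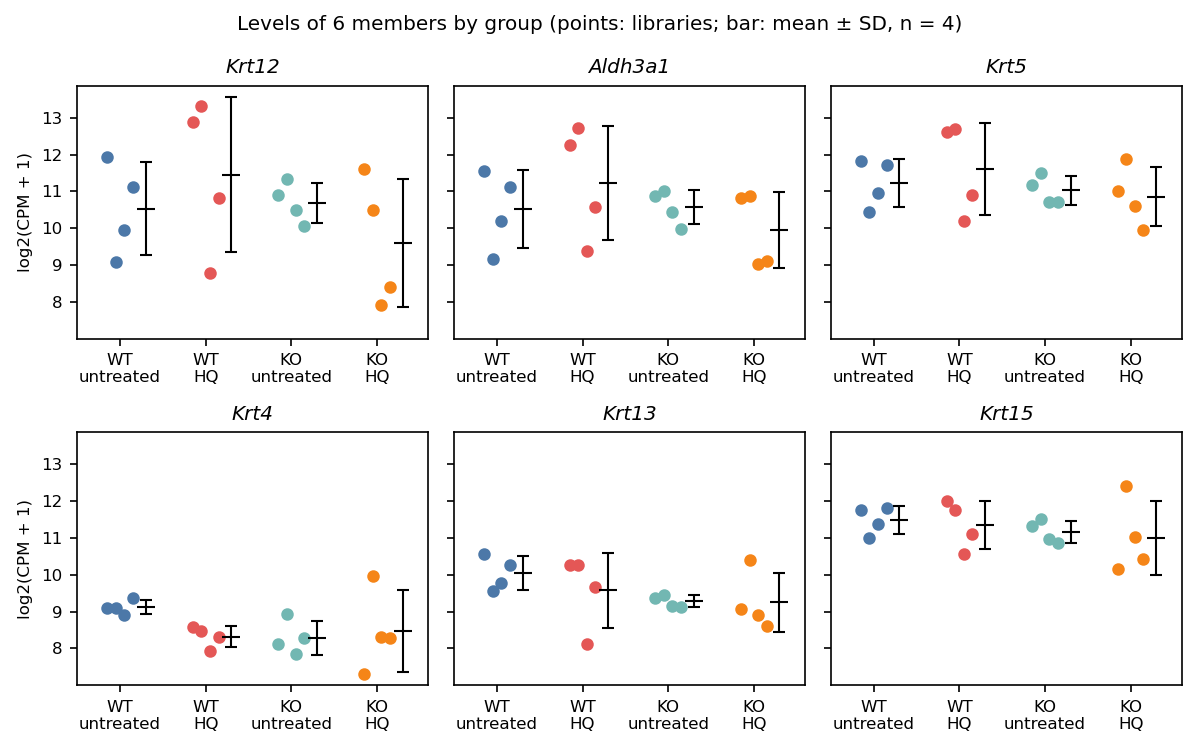
Levels of Krt12, Aldh3a1, Krt5, Krt4, Krt13 and Krt15 as log2(CPM + 1) on the y axis, by group on the x axis. Each point is a library and the bar is the mean ± SD (n = 4 libraries, from 2 mice in the untreated wild type and 3 in the untreated knockout). Krt12 spans from 242 to 10320 CPM over the libraries and Krt4 from 158.5 to 1007 CPM, and only Krt4 (wild type, untreated against HQ) and Krt13 (untreated, wild type against knockout) separate a pair of groups that differ in 1 factor.

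Promoter sequence was available for 13 of the 35 members, from RefSeq on GRCm38.p6. The 250 bases before the start of a corneal, a basal and a conjunctival keratin gene are shown because these genes stand for the branches compared below. They lie on the minus strand at chr11:99422260-99422509 (Krt12), chr15:101712906-101713155 (Krt5) and chr11:100121567-100121816 (Krt13), and are written 5′ to 3′. Capitals mark matches on either strand to TATAAA (the TATA box), to CACCC (the box bound by Krüppel-like factors such as KLF5) and to GGAAG (a core bound by ETS factors such as ELF3 and EHF).
Krt12: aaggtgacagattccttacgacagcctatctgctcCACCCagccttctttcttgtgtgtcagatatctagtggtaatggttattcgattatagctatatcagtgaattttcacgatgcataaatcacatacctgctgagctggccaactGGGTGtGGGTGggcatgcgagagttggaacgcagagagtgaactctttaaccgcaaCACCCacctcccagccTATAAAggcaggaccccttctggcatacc
Krt5: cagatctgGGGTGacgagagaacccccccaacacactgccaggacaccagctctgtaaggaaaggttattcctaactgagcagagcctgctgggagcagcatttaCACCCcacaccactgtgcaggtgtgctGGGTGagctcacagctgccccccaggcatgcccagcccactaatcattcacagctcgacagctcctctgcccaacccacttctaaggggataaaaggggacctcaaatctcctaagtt
Krt13: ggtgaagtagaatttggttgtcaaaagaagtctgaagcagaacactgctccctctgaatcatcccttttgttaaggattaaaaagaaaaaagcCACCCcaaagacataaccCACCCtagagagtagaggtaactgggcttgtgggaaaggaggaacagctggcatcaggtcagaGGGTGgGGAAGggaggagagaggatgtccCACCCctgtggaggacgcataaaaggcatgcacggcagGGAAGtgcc
The window of Krt12 held 1 TATAAA, which began 29 bases before the start, and 4 CACCC matches. That of Krt5 held 3 CACCC matches, and that of Krt13 held 4 CACCC and 2 GGAAG matches. Neither held the exact letters TATAAA. Variants of the TATA box were not searched for, and both windows hold the letters ATAAAA. The CACCC box was found in 12 of the 13 members' windows and in 52.0% of all 32851 windows of the same length. GGAAG was found in 7 of 13 and in 64.1% of all windows, TATAAA in 2 of 13 (Krt12 and Aqp3) and in 12.4%, and AACCGGTT (a motif of Grainyhead-like factors such as GRHL3) in 0 of 13 and in 0.116%. A match describes letters only, not binding.

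Of the basal keratinocyte genes, Krt5 (ENSMUSG00000061527, chr15:101707070-101712898, minus strand), the type II keratin of basal cells, stood at 3638, 1388, 2001 and 3341 CPM in the untreated wild type and 6228, 6680, 1162 and 1920 CPM with HQ. It stood at 2317, 2887, 1672 and 1687 CPM in the untreated knockout and 2050, 3778, 1557 and 985 CPM in the knockout with HQ. Its range was 6.78-fold, against 42.7-fold for Krt12. Krt14, the usual partner of keratin 5, held 269.6, 145.5, 175 and 288 CPM in the untreated wild type and 454, 256, 95.8 and 119 CPM with HQ. Its knockout libraries held 145, 218, 102 and 182 CPM untreated and 56.0, 403, 229 and 108.5 CPM with HQ. Knockout HQ replicate 1, with the fourth-highest Krt12 of the 16 libraries, had the lowest Krt14.

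Krt15 (ENSMUSG00000054146, chr11:100131758-100135928, minus strand) stood at 3491, 2061, 2662 and 3597 CPM in the untreated wild type and at 4096, 3475, 1503 and 2189 CPM with HQ. The knockout stood at 2540, 2913, 1992 and 1877 CPM untreated and at 1146, 5462, 2101 and 1363 CPM with HQ. The same knockout HQ replicate 1 was lowest for Krt15 and knockout HQ replicate 2 was highest, as for Krt4. Trp63 encodes p63, the master regulator of stratified epithelia. It held 53.1, 19.4, 37.8 and 53.5 CPM in the untreated wild type, 103, 116.5, 26.5 and 33.9 CPM in the wild type with HQ, 44.8, 55.9, 24.9 and 29.0 CPM in the untreated knockout and 33.4, 65.8, 26.6 and 17.3 CPM in the knockout with HQ. For Trp63, as for Krt5, wild type HQ replicates 1 and 2 were highest and all groups overlapped.

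The stress keratins are switched on in wounded or fast-dividing keratinocytes, and Krt6a is also a normal keratin of the cornea. Krt6a held 687, 371.5, 349 and 593 CPM in the untreated wild type and 1029, 813, 162 and 397 CPM with HQ. In the knockout it held 402, 442, 342.5 and 356 CPM untreated and 328, 722, 331 and 203 CPM with HQ. Of its 50-base stretches 45.7% also occur elsewhere, mostly in Krt6b (224.6 to 1372 CPM), so the split of reads between the 2 genes is uncertain. Krt17 was low, at 19.7, 33.0, 30.7 and 39.4 CPM in the untreated wild type, 56.5, 23.0, 18.4 and 14.6 CPM in the wild type with HQ, 8.99, 26.5, 7.50 and 12.1 CPM in the untreated knockout and 5.62, 62.9, 23.9 and 27.8 CPM in the knockout with HQ. Krt16 was lower still, at 4.01, 12.9, 2.38 and 4.18 CPM, 28.1, 13.5, 1.35 and 3.31 CPM, 0, 5.98, 0.676 and 3.73 CPM and 2.60, 7.40, 24.3 and 3.41 CPM in the same order of groups. Of Krt16, 37.6% of 50-base stretches occur elsewhere, and its highest libraries (wild type HQ replicate 1 and knockout HQ replicate 3) lay near opposite ends of the order of Krt12.

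Aqp5, a water channel of corneal epithelium and of secretory glands, held 618, 122, 176 and 446 CPM in the untreated wild type and 1125, 1466, 49.8 and 381 CPM with HQ. The knockout held 356, 268, 223 and 206 CPM untreated and 400.0, 272, 85.7 and 63.5 CPM with HQ. Its range was 29.4-fold and its groups overlapped. Aqp3, the water and glycerol channel of basal and conjunctival cells, ranged 5.75-fold, from 121.6 to 699.2 CPM. Slurp1, a secreted protein of superficial corneal cells, had the widest range of the 33 members detected in every library, from 3.62 CPM in knockout HQ replicate 3 to 515.4 CPM in wild type HQ replicate 2, 142-fold.

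The desmosome genes encode the adhesion plaques that hold stratified epithelia together. Perp held 527, 263, 362 and 455 CPM in the untreated wild type, 802, 984, 271 and 404 CPM in the wild type with HQ, 397, 479, 361 and 282 CPM in the untreated knockout and 353, 560.4, 277.5 and 255 CPM in the knockout with HQ. Dsp, the desmoplakin that ties the plaque to keratin, held 811, 359.8, 506 and 806 CPM, 1564, 1185, 421 and 556 CPM, 565, 901, 459.7 and 452 CPM and 489, 818, 393 and 320.5 CPM in the same order. Jup, the plaque protein plakoglobin, held 275, 151, 174 and 285 CPM, 441, 433, 111 and 168 CPM, 195, 217.5, 149 and 159 CPM and 168, 282, 152 and 130.2 CPM. All 3 were highest in wild type HQ replicates 1 and 2, and all 3 overlapped between groups. Perp had the narrowest range of the tested members, at 3.86-fold, and a within-group SD of 0.57 (log2), larger than that of 87.0% of tested genes. Among the other cadherins and plaque genes (Dsg1a, Dsg3, Dsc2, Dsc3, Pkp1, Pkp3) and the envelope genes Evpl and Ppl, the highest library exceeded the lowest by 5.28-fold (Dsc2) to 13.6-fold (Dsg1a). Dsg1a shares 35.02% of its 50-base stretches with other genes, mostly Dsg1b.

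Epcam, an epithelial adhesion molecule, held 22.6, 10.6, 13.7 and 16.6 CPM in the untreated wild type, 31.6, 47.6, 5.40 and 13.2 CPM in the wild type with HQ, 16.2, 18.3, 11.9 and 12.8 CPM in the untreated knockout and 11.6, 28.2, 11.6 and 5.16 CPM in the knockout with HQ. Lypd3 (19.1 to 163.9 CPM), Sfn (72.1 to 576.0 CPM), the keratinocyte 14-3-3 protein, and Upk1b (67.5 to 433.3 CPM), a uroplakin also found on the ocular surface, shared the pattern of high values in wild type HQ replicates 1 and 2. Of the transcription factors, Elf3, an ETS factor of epithelial differentiation, held 393, 163, 169.9 and 295 CPM, 419, 502, 86.4 and 222 CPM, 218, 166, 181.5 and 150.4 CPM and 181, 363, 152 and 87.4 CPM in the same order of groups. Klf5, a Krüppel-like factor of proliferating epithelium, held 43.6, 27.6, 35.7 and 58.7 CPM, 80.6, 68.6, 21.4 and 31.6 CPM, 42.8, 40.1, 32.0 and 29.7 CPM and 31.8, 62.1, 32.6 and 18.4 CPM. Neither separated any pair of groups, and Ehf, Grhl3 and Ovol1 ranged over 6.26-fold, 4.78-fold and 6.90-fold.

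**Figure D2:**
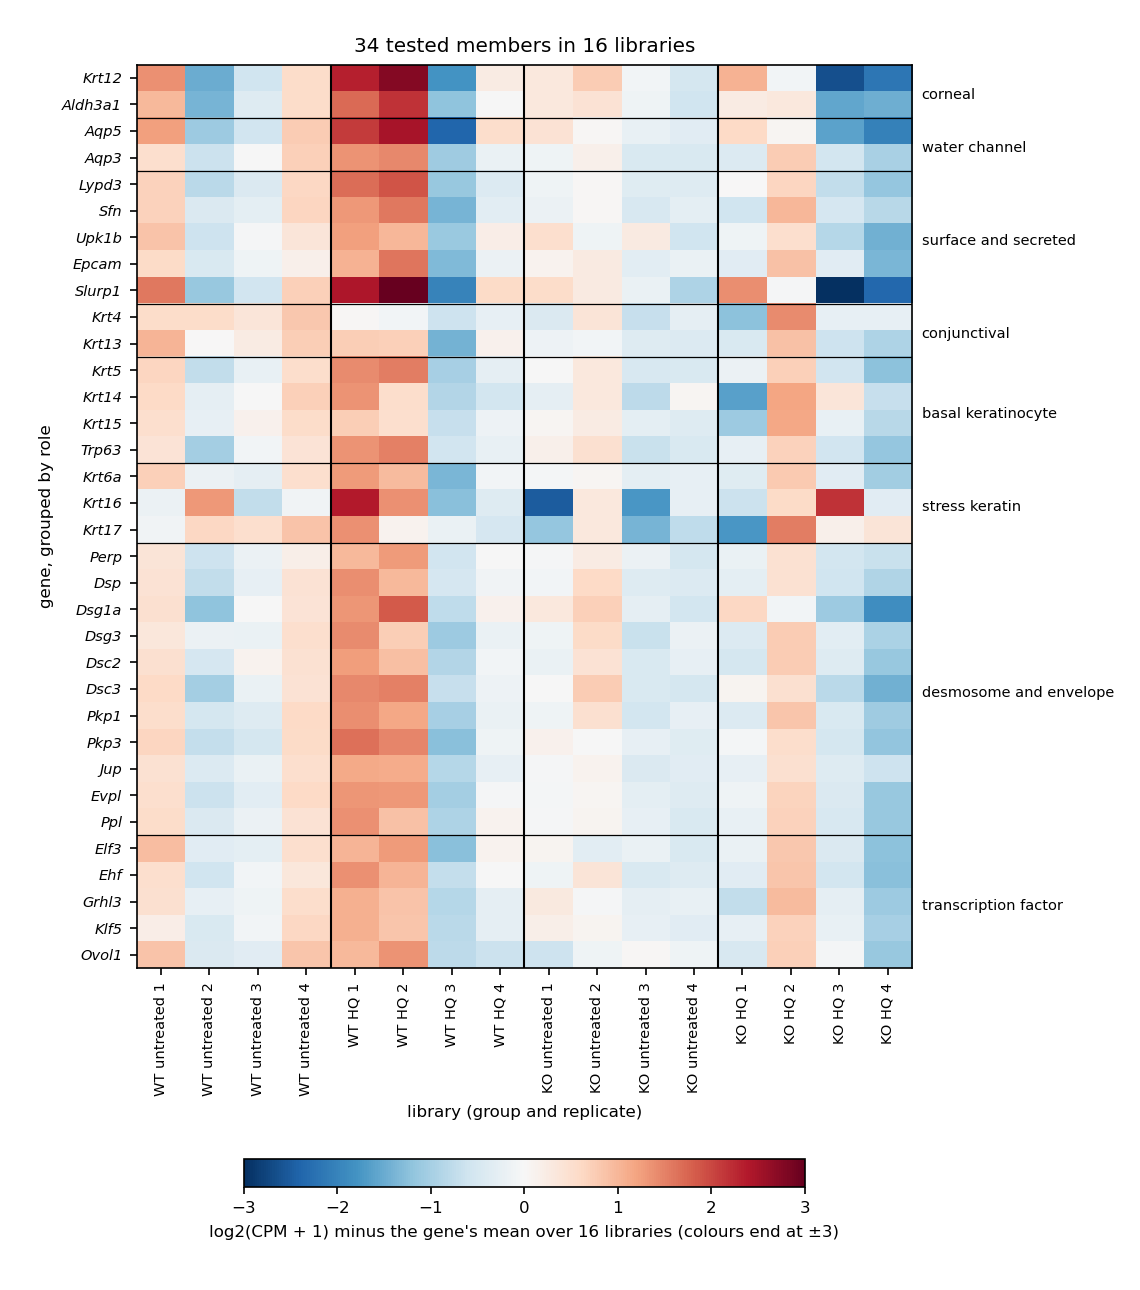
Each row is 1 of the 34 tested members, grouped by role, and each column 1 of the 16 libraries, grouped by genotype and treatment; colour is log2(CPM + 1) minus the gene's mean over the 16 libraries, and colours end at ±3. Most rows are high in wild type HQ replicates 1 and 2 and low in wild type HQ replicate 3 and knockout HQ replicate 4, while the rows of Krt4, Krt14, Krt15 and Krt17 are lowest in knockout HQ replicate 1.

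HQ was compared with no treatment in each genotype. In the wild type, 30 of the 34 tested members were higher with HQ, with a median log2 fold change of 0.50, against a median of -0.00020 over all tested genes. In the knockout 16 of 34 were higher and the median was -0.017. None of these changes passed edgeR's quasi-likelihood test at an adjusted p of 0.05, where 0.00650% of all genes were called in the wild type and 0.0455% in the knockout. At an unadjusted p below 0.05 edgeR gave 0 members in both comparisons, against 4.28% and 2.96% of all genes, and DESeq2 gave 1 in each, against 5.27% and 3.56%. DESeq2 and limma also called 0 by adjusted p. By role, all 11 desmosome and envelope genes were higher with HQ in the wild type (median 0.56, from 0.33 to 0.91), as were all 5 transcription factors (median 0.27), whereas 0 of the 2 conjunctival keratins were. In the knockout the same 11 desmosome and envelope genes had a median of -0.07 and the 3 stress keratins one of 1.12.

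In the wild type the fitted change with HQ was largest for the corneal group and for genes with wide ranges: Slurp1 by 1.56 ± 1.05 (log2 ± SE), Krt12 by 1.39 ± 0.912 and Aqp5 by 1.15 ± 0.795. Without wild type HQ replicate 2 the change of Krt12 was 0.77. The conjunctival keratins went the other way, Krt4 by -0.79 ± 0.417 and Krt13 by -0.31 ± 0.432. So did Krt17 by -0.12 ± 0.59 and Krt15 by -0.069 ± 0.431, and of these genes only Krt4 changed by more than its SE. Krt4 had the smallest p of all members (edgeR adjusted p = 0.994) and was 1 of 34 members whose libraries did not overlap between these groups, against 2.91% of all tested genes. In the knockout the smallest p was that of Krt17, at 1.12 ± 0.600 (edgeR adjusted p = 1), while the estimate was -0.44 ± 0.897 for Krt12 and 0.46 ± 0.415 for Krt4. Leaving out knockout HQ replicate 2 took Krt17 to 0.47 and Krt4 to -0.31. Krt12 went to -1.38 without knockout HQ replicate 1, to -0.11 without replicate 3, to -0.12 without replicate 4 and to -0.19 without untreated knockout replicate 2. No member separated the knockout groups, against 1.91% of all genes. In the test of the difference between the 2 HQ contrasts (the interaction), Krt4 had the smallest p, at 1.25 ± 0.588 (edgeR adjusted p = 1), and stood at 0.48 without knockout HQ replicate 2. The interaction of Krt12 was larger and less certain, at -1.83 ± 1.28, and 0 of 34 members passed by edgeR, DESeq2 or limma (0% of all genes; 0 members and 1.92% of all genes at an unadjusted edgeR p below 0.05).

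Averaged over genotype, 31 of 34 members were higher with HQ (median 0.24). None passed by edgeR, DESeq2 or limma, against 0.0845% of all genes called by edgeR. At an unadjusted edgeR p below 0.05 there were 0 members, against 5.72% of all genes. The smallest p was that of Krt16, at 1.41 ± 0.786 (edgeR adjusted p = 0.909), which was 0.86 without knockout HQ replicate 3. These medians depended on which libraries entered. Over the 9 libraries whose identifiers lack a letter the median change with HQ was 0.65 in the wild type and 0.19 in the knockout, and over the 7 with a letter it was -0.25 and -0.39, with 1 wild-type HQ library of that form. Krt12 itself had a median of 2581 CPM in the former and 1060 CPM in the latter libraries. Leaving out wild type HQ replicate 1 lowered the wild-type median to 0.16, leaving out replicate 3 raised it to 0.81, and leaving out knockout HQ replicate 2 took the knockout median to -0.43.

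Knockout was compared with wild type under each treatment. Untreated, 33 of 34 members were lower in the knockout, by a median of -0.28; with HQ, 32 of 34 were lower, by -0.77. Averaged over treatment all 34 were lower, by -0.53, against a median of 0.020 over all tested genes. edgeR called 0 members in each of the 3 comparisons (0%, 0% and 0% of all genes), and so did DESeq2 and limma. Because the members vary together from library to library, these counts of direction are not 34 separate observations. At an unadjusted p below 0.05 edgeR gave 0, 3 and 0 members, against 1.32%, 4.18% and 2.96% of all genes. DESeq2 gave 1, 11 and 3, against 1.72%, 5.31% and 3.76% of all genes. The treatment and genotype comparisons share libraries (the untreated wild type serves in both), so they are not independent of each other.

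The 3 members were Aqp5 at -1.88 ± 0.811 (edgeR adjusted p = 1), Aldh3a1 at -1.55 ± 0.678 and Dsg1a at -1.28 ± 0.592, all in the comparison under HQ. Without wild type HQ replicate 2, Aldh3a1 stood at -0.99 and Dsg1a at -0.80. In the same comparison Krt12 stood at -1.97 ± 0.928 and Krt4 at 0.47 ± 0.415. No member's libraries separated the genotypes under HQ, against 2.33% of all genes. Without treatment Krt13 was the 1 member that did (-0.81 ± 0.435), against 1.05% of all genes, and Krt17 had the smallest p (-1.15 ± 0.600, edgeR adjusted p = 1). Averaged over treatment the smallest p was that of Aqp5 (-1.13 ± 0.562, edgeR adjusted p = 0.987). The untreated change of Krt12, -0.14 ± 0.895, turned to 0.47 without wild type untreated replicate 1. Within identifier forms the median under HQ was -0.58 without and -0.61 with a letter. Leaving out wild type HQ replicate 1 brought it to -0.48 and leaving out knockout HQ replicate 2 to -1.21.

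**Figure D3:**
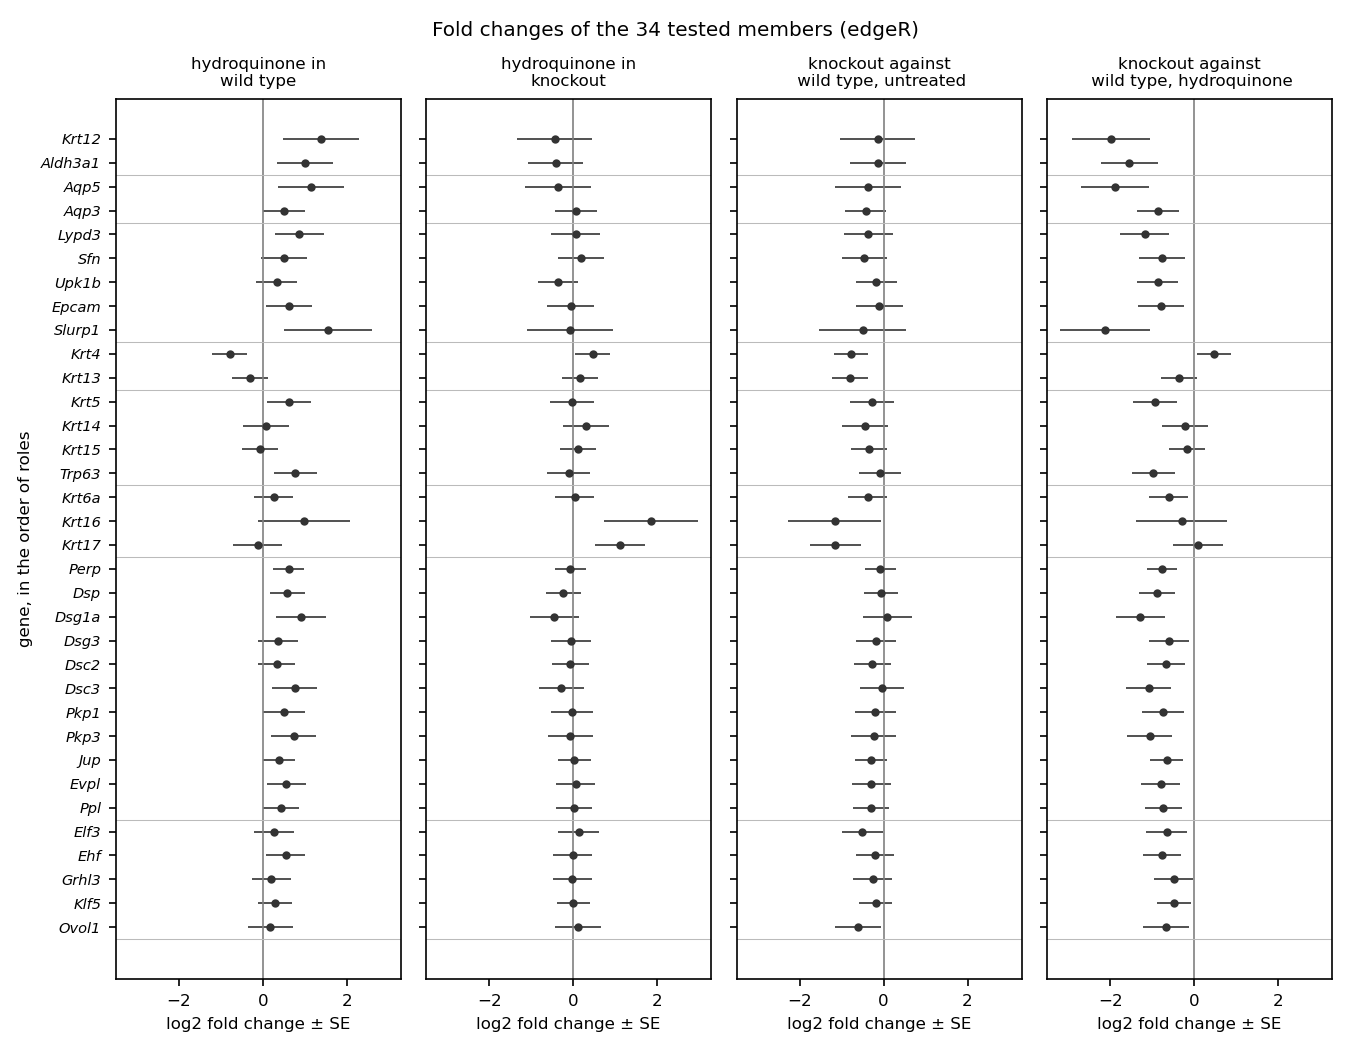
Log2 fold changes ± SE (x axis, edgeR) of the 34 tested members (y axis, by role) in 4 comparisons. With HQ in the wild type most points lie above 0 while Krt4 lies at -0.79; knockout against wild type with HQ puts 32 of 34 points below 0, and no point in any panel passed the adjusted threshold.

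Krt12 also differed between the eyes of a mouse, where genotype and treatment are the same and only 1 of the 2 eyes' identifiers carries a letter. In the mouse that gave untreated wild-type replicates 1 and 2 the right eye held 3923 CPM and the left 536.3 CPM, 7.32-fold apart, and Aldh3a1 differed 5.22-fold. Krt5 differed 2.62-fold and Krt15 1.69-fold between the same eyes, but Krt4 stood at 550.9 and 545.2 CPM, 1.01-fold apart. In the second untreated wild-type mouse the left eye was higher, by 2.24-fold for Krt12 and 1.37-fold for Krt4. In the untreated knockout mouse with both eyes the difference was 1.32-fold for Krt12 and 1.20-fold for Krt4. In all 3 mice the eye with more Krt12 also had more Aldh3a1, Krt5, Krt15, Krt13, Perp and Slurp1. It also had more Krt4, by 1.01- to 1.37-fold.

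The members were then related to Krt12 over the 13 mice, with both eyes of a mouse averaged on the log2(CPM + 1) scale. Krt12 ran from 7.92 to 13.33 over the mice. Pearson's r was positive for all 33 other tested members and had a median of 0.82, against -0.012 over all other tested genes. Of the 33, 28 passed a permutation test (100000 resamples, 2-sided, Benjamini-Hochberg over 42 relations, of which 9 were marker lists) and 22 passed by Spearman's rho. With p adjusted over all 15379 other genes 25 passed, where 7.92% of those genes had a positive relation past the threshold. Because the members were chosen with earlier results of these data known, these counts are not an independent test.

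The closest relations were those of Slurp1 (r = 0.988, permutation p = 1e-05, the smallest 100000 resamples can give; adjusted over all genes 0.0032; rho = 0.978), Aldh3a1 (r = 0.977, rho = 0.890), Aqp5 (r = 0.961, rho = 0.896) and Dsg1a (r = 0.957, rho = 0.967). Among all 15379 genes these 4 ranked 2nd, 4th, 9th and 14th. Krt5 followed at r = 0.870 (rho = 0.764), Trp63 at 0.848 (rho = 0.797) and Krt13 at 0.703 (rho = 0.560, permutation p adjusted over all genes 0.0533). The 5 members that did not pass were Krt15 (r = 0.481, rho = 0.429), Krt14 (r = 0.307, rho = 0.220), Krt16 (r = 0.240, rho = 0.0989), Krt4 (r = 0.0786, rho = 0.0989; permutation p adjusted over all genes 0.892) and Krt17 (r = 0.0545, rho = -0.0989). Without the 2 mice farthest from the median of Krt12, r was 0.980 for Slurp1, 0.967 for Aldh3a1, 0.861 for Krt5, 0.656 for Krt13 and 0.0658 for Krt4.

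Members also differed in how much they changed for a given change of Krt12. For each doubling of Krt12, Slurp1 changed by 1.17 log2 units, Aqp5 by 0.85, Aldh3a1 by 0.68, Krt5 by 0.46, Krt13 by 0.32, Krt15 by 0.20 and Krt4 by 0.033. The median slope over the members was 0.38. Most of the members' relation rested on the mice at the ends of the Krt12 range. All of these end mice had HQ. Every untreated mouse, including the 3 whose 2 eyes were averaged, lay between them. Between the 3 lowest and the 2 highest mice, each set apart by a gap of 1.28, lay 8 mice with Krt12 between 10.05 and 11.61 (a 2.95-fold range), and over these the members' median r was -0.08, with 12 of 33 above 0 and 0 past an exact permutation test adjusted over the 33. Over these 8 mice r was 0.919 for Dsg1a (exact permutation p = 0.00193, adjusted 0.0638; rho = 0.881), 0.870 for Slurp1 (rho = 0.905), 0.720 for Aldh3a1 (rho = 0.524) and 0.713 for Aqp5 (rho = 0.643), against 0.104 for Krt5 (rho = 0.0476), -0.418 for Krt15 (rho = -0.310) and -0.443 for Krt4 (rho = -0.476). No share over all genes was computed for these 8 mice. Over single libraries the largest gap in Krt12 was 0.95.

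**Figure D4:**
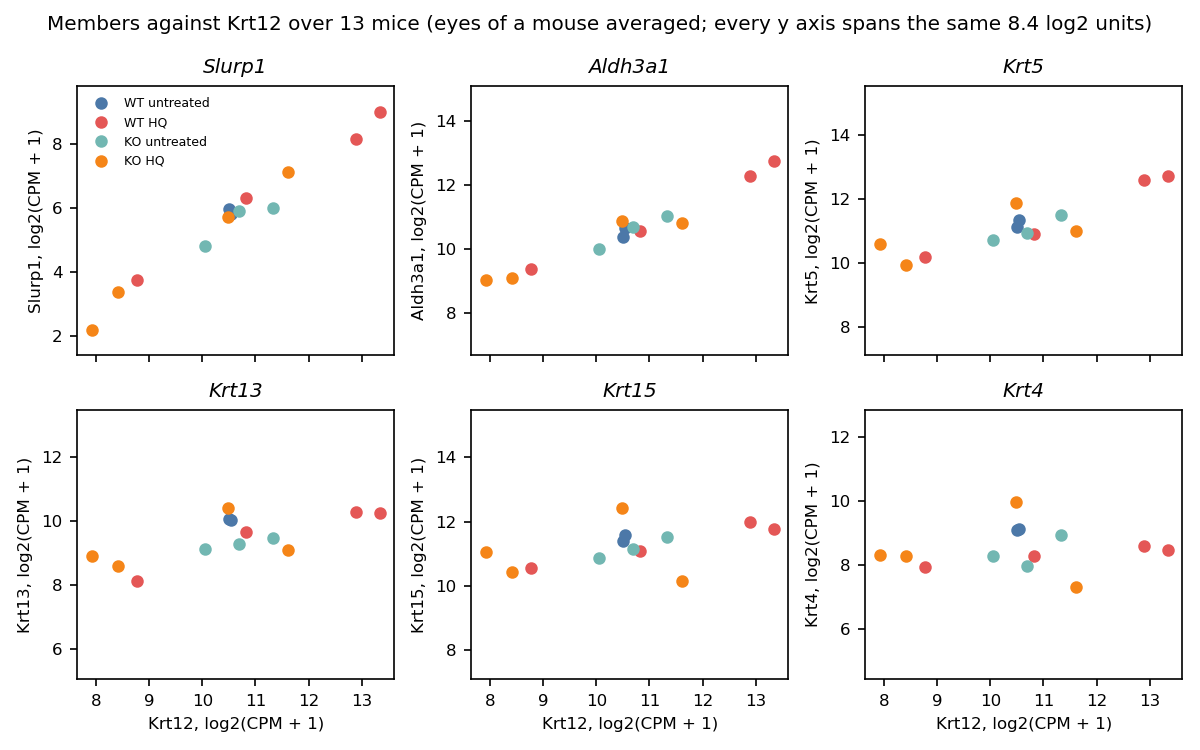
Slurp1, Aldh3a1, Krt5, Krt13, Krt15 and Krt4 (y axes) against Krt12 (x axis), all as log2(CPM + 1), over 13 mice coloured by group; every y axis spans the same length. Slurp1 and Aldh3a1 lie close to a line (r = 0.988 and 0.977), Krt5 rises less steeply, and Krt4 shows no slope (0.033 log2 units per doubling of Krt12).

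Within the 9 libraries without a letter the members' median r with Krt12 was 0.82 (32 of 33 above 0), and within the 7 with a letter it was 0.74 (31 of 33 above 0). No median r or share over all genes was computed within either form, so these values have no background. Aldh3a1 was related to Krt12 in both (r = 0.973 and 0.964; exact permutation p = 4.96e-05 and 0.000992). Krt4 did not pass in either (r = -0.00124 and 0.162; exact permutation p = 0.998 and 0.71).

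The ratio of corneal to conjunctival keratin differed from library to library. Per exon length, Krt12 exceeded Krt4 by 8.20-, 1.13-, 2.40- and 3.92-fold in the untreated wild type and by 22.8-, 33.8-, 2.07- and 6.63-fold in the wild type with HQ. In the untreated knockout the ratio was 7.96, 6.12, 7.21 and 3.95, and in the knockout with HQ 22.8, 1.64, 0.881 and 1.25. Knockout HQ replicate 1 had nearly the ratio of wild type HQ replicate 1 and a lower one than replicate 2. Its Krt12 of 3131 CPM was below that of both, and its Krt4 was the lowest of all. Krt12 over Krt13 ran from 0.495 to 8.32 and Krt12 over Krt15 from 0.110 to 2.83, with the same 3 libraries highest. The ratios taken within branches moved less than those of Krt12 to genes of other branches. Krt12 over Aldh3a1 ran from 0.488 to 1.82, Krt13 over Krt4 from 1.34 to 4.06 and the basal Krt5 over Krt14 from 5.44 to 29.3. Their SDs over libraries were 0.516, 0.54 and 0.601 (log2). The SD was 1.61 for Krt12 over Krt4, 1.15 over Krt13, 1.32 over Krt15 and 0.904 over Krt5. All of these hold Krt12, whose own SD over the libraries was 1.52 on the log2(CPM + 1) scale. Ratios of conjunctival to basal genes were not computed. These values therefore do not show that ratios across branches vary more in general.

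None of the 3 ratios of Krt12 to Krt4, Krt13 and Krt15 passed a test between groups of mice. On the log2 scale Krt12 over Krt4 was 2.34 ± 2.13 (SD) in the 8 mice with HQ and 2.15 ± 0.595 in the 5 untreated mice (exact permutation p = 0.845, 2-sided). The 3 mice whose 2 eyes were averaged were all untreated, so these SDs are not of like units. In 1 of them the eyes had ratios of 8.20 and 1.13. The permutation treated averaged and single-eye mice alike. It was 1.84 ± 1.66 in the 7 knockout mice and 2.77 ± 1.67 in the 6 wild-type mice (exact permutation p = 0.329). Over the 6 tests the smallest adjusted p was 0.756. With 1287 and 1716 ways of splitting the mice, far smaller p-values were possible. That number does not set the power, and with SDs of up to 2.13 these tests do not exclude a difference.

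**Figure D5:**
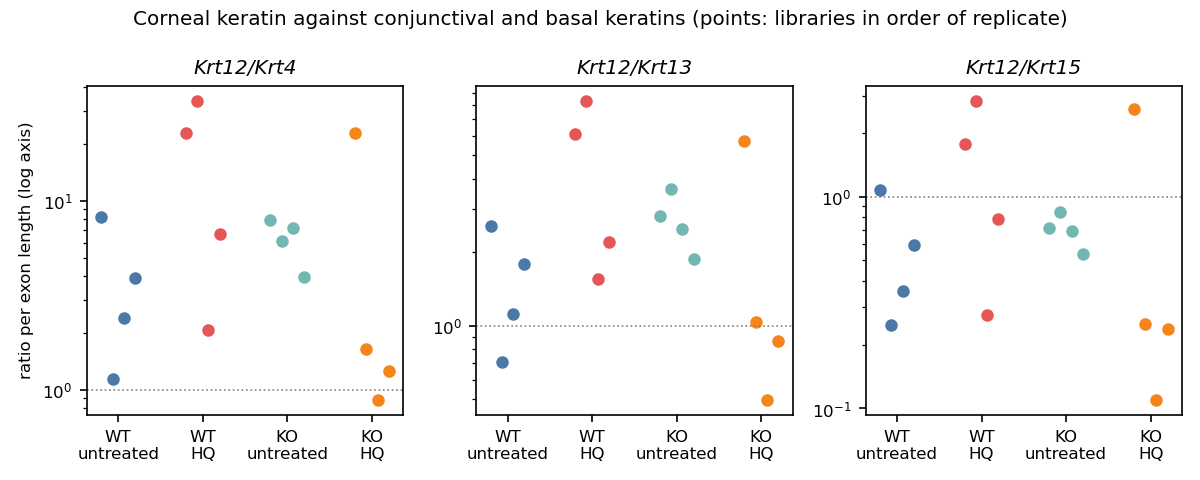
Ratios per exon length of Krt12 to Krt4, Krt13 and Krt15 (log y axes) by group (x axis), each point a library; the dotted line marks a ratio of 1. Wild type HQ replicates 1 and 2 and knockout HQ replicate 1 lie highest in every panel, and knockout HQ replicate 3 lies lowest (0.881 for Krt12 over Krt4).

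Markers of neighbouring tissues were measured beside the members. Skin epidermis genes were near absent: the 10 listed summed to 12.3 to 22.7 CPM, and Flg, Flg2 and Lce1a1 stood at 0 in every library. The 7 genes of conjunctival goblet cells, the mucus cells of the conjunctiva, summed to between 2.78 and 93.0 CPM, and their mucin Muc5ac ranged from 0.469 to 75.6 CPM with its highest value in untreated knockout replicate 4. Their score was not related to Krt12 over mice (r = 0.0193, rho = -0.143). Lens genes summed to 21.6 to 249.3 CPM (Cryaa 1.11 to 105.4 CPM; r with Krt12 = 0.571, rho = 0.544, permutation p adjusted over 42 relations 0.0578). Kera, the keratocan of corneal stroma, stood between 0.493 and 14.9 CPM, and the stroma and sclera list, taken without Aldh3a1, had r = -0.388 (rho = -0.192). The RPE list fell as Krt12 rose (r = -0.695, rho = -0.582, permutation p adjusted over 42 relations 0.0127; rho's adjusted value 0.0661), and rod markers had r = 0.427 (rho = 0.412). The part of other cell types in the members' levels was not tested.

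Beyond the members, 48 other surface epithelium genes were looked up, of which 43 passed the filter and 1, Sprr1b, had 0 counts throughout. edgeR called 0 of the 43 in each of the 7 comparisons; at an unadjusted p below 0.05 it gave 1 in each of the 3 HQ comparisons (4.28% of all genes in the wild type, 2.96% in the knockout, 5.72% averaged), 5 for knockout against wild type under HQ (4.18%), 1 for the interaction (1.92%) and 0 in the other two. Their median changes were 0.42 with HQ in the wild type and -0.57 for the knockout under HQ, beside the members' 0.50 and -0.77. Their score was related to Krt12 over mice (r = 0.813, rho = 0.681, permutation p adjusted over 42 relations 0.00186). The 4 with the widest range were Col17a1, the hemidesmosome collagen (67.6 to 940.4 CPM), Psca, a surface antigen of mucosal epithelia (51.6 to 598.7 CPM), Serpinb5, the keratinocyte serpin maspin (17.1 to 145.8 CPM), and Cldn7, a claudin (23.9 to 190.4 CPM). Krt18 and Krt8, simple keratins of single-layered epithelia, were picked out after their values were seen; they ranged from 324.2 to 505.2 CPM and from 160.4 to 281.5 CPM.

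Krt12 shares 54.4% of its exon bases with the opposite-strand gene A830036E02Rik, which held 24 to 436 counts per library (0.938 to 12.5 CPM) against 7467 to 358894 for Krt12. Whether strand was used in counting is not given in the sources used here. The 33 members detected throughout held at least 79 counts in every library (Ovol1 in knockout HQ replicate 4).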

How the data were processed

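RNA from 16 RPE samples was sequenced in pairs of reads on a NovaSeq, per the labels' protocols. The deposited table holds whole-number counts per gene, made by the authors; the submitters' processing notes name mm10, STAR, Cufflinks and DESeq2 without their order, and counting and strand settings are not given in the sources used here. Totals ran from 21113549 to 35332444 counts. Groups, mice and eyes come from the titles. The members and gene lists were chosen with earlier results of these data known.

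The 15380 genes whose mean reached 1 CPM (99.8% of counts) were fitted with edgeR 4.0.16 (R 4.3.3; TMM factors 0.973 to 1.03; quasi-likelihood test on 4 group means; Benjamini-Hochberg over all tested genes, threshold 0.05). DESeq2 1.42.0 and limma 3.58.1 with the mouse as a block were alternatives, with other filters, scalings, covariates and omitted libraries. The procedure was tested on simulated data. Levels are TMM-scaled CPM, with log2(CPM + 1) for relations; exon lengths and coordinates are from GENCODE vM21 (GRCm38). Permutation tests used Python 3.11.15 with scipy 1.17.1. The p-values measure the spread between these samples, and the eyes of a mouse entered the edgeR fit as separate samples. Values per library were given for the corneal, conjunctival, basal, Krt6a, Aqp5, Perp, Dsp, Jup, Epcam, Elf3 and Klf5 genes and for members with the smallest p, and the other members by range.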

Additional observations from a re-analysis of the deposited data

How the results depend on the processing

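The count of members called stayed at 0 in each of the 7 comparisons under 10 other settings, in the 4 comparisons of 2 groups also when only those groups were fitted, and with each of the 16 libraries left out. In knockout against wild type edgeR called 0 of all genes too, so the count had little room to move there. At an unadjusted edgeR p below 0.05 the count did move. For the knockout under HQ it was 3 of 34. With 1 library left out it ran from 0 (wild type HQ replicate 1, 2.46% of all genes) to 26 (knockout HQ replicate 2, 7.05%). It was 24 without wild type HQ replicate 3 (11.6%). Over all tested genes edgeR called 1, 7 and 13 with HQ in the wild type, in the knockout and averaged, and DESeq2 20, 14 and 37. With the mouse as a block in limma (consensus correlation -0.02) the members' median change with HQ was 0.26 in the wild type and 0.04 averaged. With libraries left out, the median ran from 0.16 to 0.81 with HQ in the wild type, from -0.43 to 0.22 in the knockout, from -0.45 to -0.13 for the untreated knockout and from -1.21 to -0.48 for the knockout under HQ.

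The members' median change with HQ turned over the 7 libraries with a letter, to -0.25 in the wild type (9 of 34 higher) and -0.33 averaged (2 of 34 higher). The cause was not tested. Krt12 in the untreated knockout was 0.17 with the mouse block, 0.14 with the rod score as covariate, and between -0.45 and 0.47 (0.04 without knockout untreated replicate 4) with libraries left out. Krt4 with HQ in the knockout ran from -0.31 (without knockout HQ replicate 2) to 0.75. The r of Krt4 with Krt12 ran from -0.012 to 0.225 with a mouse left out and was -0.001 over libraries without a letter.

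The count of members related to Krt12, 28, was 26 to 29 with a mouse left out. In settings chosen after seeing the data it was 3 over the 7 libraries with a letter and 0 over the 8 mice between the gaps, where fewer samples entered; Krt15 passed (r = 0.681) without the mouse of knockout HQ replicate 1. No paired analysis was possible because replicate numbers follow accession order and pair no samples across groups.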

Other observations

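After the values above were seen, the members were also related to Krt4 over the 13 mice. All 33 values of Pearson's r were above 0, with a median of 0.452. In a permutation test adjusted over the 33, 3 passed by Pearson's r and 23 by Spearman's rho. Genes outside the members were not related to Krt4. These counts and the median therefore have no background and cannot be read as particular to the members. The 3 were the basal keratin genes Krt15 (r = 0.83, permutation p adjusted 0.0125) and Krt14 (r = 0.776, adjusted 0.0216) and the stress keratin gene Krt17 (r = 0.814, adjusted 0.0135), all among the 5 members that did not pass with Krt12. Without the mouse with most Krt4 (knockout HQ replicate 2), 0 passed by Pearson's r over the 12 others, with r of 0.740, 0.729 and 0.755 for Krt15, Krt14 and Krt17.

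Among genes outside the members, Fam83a had the highest r with Krt12 of all 15379 genes (r = 0.992, rho = 0.984), at 11.8 to 308.3 CPM. Lypd2 followed at rank 3 (r = 0.981, rho = 0.967; 12.6 to 850.4 CPM), then Padi4, a peptidylarginine deiminase (r = 0.974, rho = 0.951), and Tmprss11e, a serine protease of stratified epithelia (r = 0.964, rho = 0.984). Without the 2 mice farthest from the median of Krt12, r was 0.993 for Fam83a and 0.964 for Lypd2.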
